A study of Mus musculus with 4 samples.

Results

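The inhibitors of cyclin-dependent kinases were followed at transcript level through single cultured mouse muscle cells, in 6 genes: Cdkn1a, Cdkn1b, Cdkn2a, Cdkn2b, Cdkn2c and Cdkn2d. They were chosen by name, and all 6 were found among the 32285 genes counted. The cells were muscle stem cells of MyoD-KI mice, kept for 5 days in serum-rich growth medium and sorted for high MyoD-tdTomato, a red fluorescent reporter of the muscle regulator MyoD. Per the labels, 4 droplet libraries of this population (MyoD-KI, MyoD-tdTomato high) were made with 10x 3-prime chemistry, which counts captured transcripts as unique molecular identifiers (UMIs). The labels give no animal age or sex, do not say how the reporter was inserted, and show neither how many mice were used nor whether they were pooled. Cells with low reporter signal, named in the protocol, were not analysed here.

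The 4 libraries shared between 5946 and 5965 cell barcodes per pair, at least 99.9% of the smaller list. Totals of the same barcode correlated across libraries with Pearson's r of 0.9997. The libraries were therefore counted as repeat measurements of 1 sample of cells, and no test between conditions was possible. Values below were computed in each library and averaged, and every interval is a 95% interval that covers counting error only. They say nothing of how other cultures or mice would vary.

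Cyclin-dependent kinases drive a cell through division when bound to cyclins, and inhibitor proteins restrain them. The CIP/KIP proteins, p21 from Cdkn1a and p27 from Cdkn1b, bind a broad range of cyclin and kinase pairs. The INK4 proteins, encoded by Cdkn2a to Cdkn2d, bind Cdk4 and Cdk6 and block their pairing with D-type cyclins. In muscle, myoblasts that differentiate express Myog, a transcription factor of differentiation, and leave the cell cycle for good. Cdkn1a is a classical p53 target and is also induced when myoblasts differentiate, whereas Cdkn2a and Cdkn2b are known from senescence and are silenced by Polycomb proteins in young stem cells.

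In the GENCODE M21 annotation of mouse GRCm38, Cdkn1a is a protein-coding gene on the plus strand at chr17:29090976-29100727. It has 5 annotated transcripts, of which 4 code for protein from different starts and share a last exon. Counts from the 3-prime end therefore do not tell these starts apart. An unnamed opposite-strand transcript, AC167363.2, overlaps the gene. Because the data bear on genes regulated by p53 and on genes that move with Myog, 250 bases before each of 2 Cdkn1a starts are shown, from RefSeq on GRCm38.p6, plus strand. The first window is chr17:29090729-29090978, before the upstream start, and the second is chr17:29093519-29093768, before the downstream start.
Cdkn1a window 1: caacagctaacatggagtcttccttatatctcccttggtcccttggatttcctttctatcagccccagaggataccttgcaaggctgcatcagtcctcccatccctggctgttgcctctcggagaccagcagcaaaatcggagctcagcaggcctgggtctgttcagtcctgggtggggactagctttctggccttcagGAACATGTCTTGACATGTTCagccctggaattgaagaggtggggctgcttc
Cdkn1a window 2: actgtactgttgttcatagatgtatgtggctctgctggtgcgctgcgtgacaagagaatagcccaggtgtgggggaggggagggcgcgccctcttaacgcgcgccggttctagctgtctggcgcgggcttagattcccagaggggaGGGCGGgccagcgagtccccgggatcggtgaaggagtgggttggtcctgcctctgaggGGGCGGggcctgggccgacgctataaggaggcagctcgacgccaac
Capitals in window 1 mark a match to the p53 element, 51 to 32 bases before the start. The element was searched on both strands as 2 adjoining half-sites of 10 bases, with the C and G of each core required and at most 1 mismatch elsewhere in its 20 bases. It occurs in 19 of the 32851 windows of this length, or 0.0578%. Capitals in window 2 mark GGGCGG, the core bound by Sp1, found in 32.7% of windows. Window 2 also holds 1 match to the E-box CANNTG, written CAGGTG, 187 to 182 bases before the start; 66.2% of all windows hold an E-box.

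Promoter windows were matched for all 6 genes, 9 windows in all. The stricter E-box CAGCTG, preferred by myogenic factors and present in 13% of windows, was found in none of the members' windows. The Cdkn1b window held CCAAT at 2 places, a motif found in 33.8% of windows. TTTCCCGC, an E2F-type site in 0.895% of windows, was found in 1 Cdkn2a window, and TTTGGCGC, the other E2F-type site searched, is in 0.417% of windows and was found in no member. TTTGAA, a cell cycle homology region found in 16% of windows, was in the Cdkn2b window, and TTCGAA, found in 1.34%, was in none. All motifs were searched on both strands, and CAGCTG is a special case of CANNTG. These matches describe letters in a window and not bound sites.

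The other loci lie elsewhere, and all code for protein in the same annotation. Cdkn1b spans chr6:134920401-134925513 on the plus strand. Cdkn2a, chr4:89274471-89294653, and Cdkn2b, chr4:89306299-89311039, are minus-strand neighbours 11645 bases apart. Cdkn2a makes p16Ink4a and p19Arf from first exons 12461 bases apart, and both transcripts end in the same last exon, so its counts join the 2 products. Cdkn2c is at chr4:109660876-109667189 and Cdkn2d at chr9:21288410-21291407, both on the minus strand.

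Each library held between 62627341 and 68898900 UMIs. Of 5944 barcodes found in all 4 libraries, 5481 passed the limits of at least 1000 genes and under 10% mitochondrial UMIs, with a median of 11049 UMIs per cell. Cells were sorted by Myog level into low (under 400 CPM, the UMIs of a gene scaled to a total of 1e+06 UMIs), mid (400 to 1500 CPM) and high (at least 1500 CPM). Within each, cells with at least 150 CPM of the proliferation genes Mki67 plus Top2a were called cycling and those under 75 CPM non-cycling, with 341 cells between these limits. This gave 899, 263 and 1854 non-cycling cells and 1491, 267 and 366 cycling cells at low, mid and high Myog. Median depth was 8868, 10838 and 10956 UMIs in the non-cycling groups and 12613, 13065 and 12755 in the cycling groups. No member was used to form these groups, but all groups come from the same culture. CPM counts 1 tagged end per molecule, is not divided by gene length, and is compared here between groups for each gene, not between genes.

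The cells carried the muscle identity of the label. Summed markers of differentiating myocytes went from 1709 CPM in non-cycling Myog-low cells to 25124 CPM in non-cycling Myog-high cells. This sum includes Myog, which formed the groups, at 87.5 and 4194 CPM. Its 8 other genes were each at least 2-fold higher with Myog there, as were 8.10% of all genes. Over all kept cells the fibroblast markers Pdgfra, Dcn and Lum stood at 0.499, 0.327 and 0.0115 CPM and Col3a1, which other cells also express, at 110 CPM. The immune markers Ptprc and Cd68 stood at 0.0269 and 0.732 CPM, the endothelial markers Cdh5 and Pecam1 at 0.0804 and 0.939 CPM, and the Schwann cell marker Sox10 at 0.0151 CPM. Of the pericyte and smooth muscle markers, Myh11 stood at 0.302 CPM, Rgs5 at 5.25 CPM and Acta2, also a gene of differentiating muscle, at 1425 CPM. Barcodes with the highest 5% of doublet scores made up 0.445%, 6.08% and 2.64% of the non-cycling and 2.28%, 18.7% and 23.5% of the cycling groups at low, mid and high Myog. The cycling groups with Myog thus hold the largest shares of possible mixed droplets.

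Cdkn1a was the member most widely seen, with 1174 CPM over all kept cells (1165 to 1182). When 5197 cells of sufficient depth were thinned to 5000 UMIs each, Cdkn1a was present in 80.6% of them, against 88.8% without thinning. The thinned shares were 13.1% for Cdkn1b, 31.4% for Cdkn2a, 5.94% for Cdkn2b, 11.4% for Cdkn2c and 20.0% for Cdkn2d. At this depth 6.41% of cells showed no member, 43.7% showed 1, 34.3% showed 2 and 15.7% showed 3 or more. Non-cycling Myog-high cells most often showed exactly 1 member (60.3%), and cycling Myog-high cells carried 2.0 on average. Without thinning, over all kept cells, Cdkn1a read in 1 library was read again in the same cell of another library in 94.2% of cases. For Cdkn2b this was 40.4%, so detection of the rarer genes is incomplete even at full depth.

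Cdkn1a climbed with Myog in both cycling states and was higher in non-cycling than in cycling cells at each Myog level. In non-cycling Myog-low cells the 4 libraries gave 423, 411, 426 and 419 CPM. Non-cycling Myog-high cells gave 2473, 2482, 2477 and 2481 CPM. The ranges are far apart, and the ratio was 5.89-fold, a log2 ratio of 2.56 (2.51 to 2.61) on CPM plus 1. Non-cycling Myog-mid cells lay between, with a mean of 987 CPM.

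Cycling cells showed the same climb from a lower floor. Libraries gave 271, 267, 272 and 280 CPM at low Myog, 711, 686, 689 and 692 CPM at mid Myog, and 1274, 1289, 1302 and 1276 CPM at high Myog. The log2 ratio of high over low was 2.23 (2.18 to 2.29). In order, the 6 groups ran from non-cycling high through cycling high, non-cycling mid, cycling mid and non-cycling low to cycling low, and the intervals of neighbours did not overlap. Cycling Myog-high cells therefore held more Cdkn1a than non-cycling cells without much Myog. Without the highest doublet scores, 280 cycling Myog-high cells still averaged 1135 CPM, and the ratio was 2.06.

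A gene was called when its mean ratio was at least 2-fold, with the same sign in every library, among genes averaging at least 50 UMIs per library over both groups. By this rule Cdkn1a was the only member higher with Myog, in both cycling states. Of all genes 8.10% were higher and 18.4% lower in the non-cycling comparison, and 4.94% were higher and 6.39% lower in the cycling one. These splits move with the scaling: 939 higher and 2138 lower became 1292 and 1457 with TMM factors, and 568 and 735 became 661 and 536. The members kept their calls with Myog. Between non-cycling and cycling cells the log2 ratio of Cdkn1a was 0.62 (0.56 to 0.68) at low, 0.51 at mid and 0.95 (0.91 to 0.98) at high Myog, each under 2-fold. The high groups were not matched for Myog, which averaged 4194 CPM in non-cycling and 2808 CPM in cycling cells. At 1500 to 3000 CPM of Myog, Cdkn1a stood at 1888 against 1148 CPM, and at 3000 to 6000 CPM at 2580 against 1523 CPM. The part of Myog in the ratio was not tested. The ratio at high Myog also depended on the processing: it was 0.55 when any Mki67 or Top2a UMI made a cell cycling. It crossed 2-fold with TMM factors (1.13), size factors (1.13), CPM averaged over cells (1.04) and without the highest doublet scores (1.15).

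**Figure D1:**
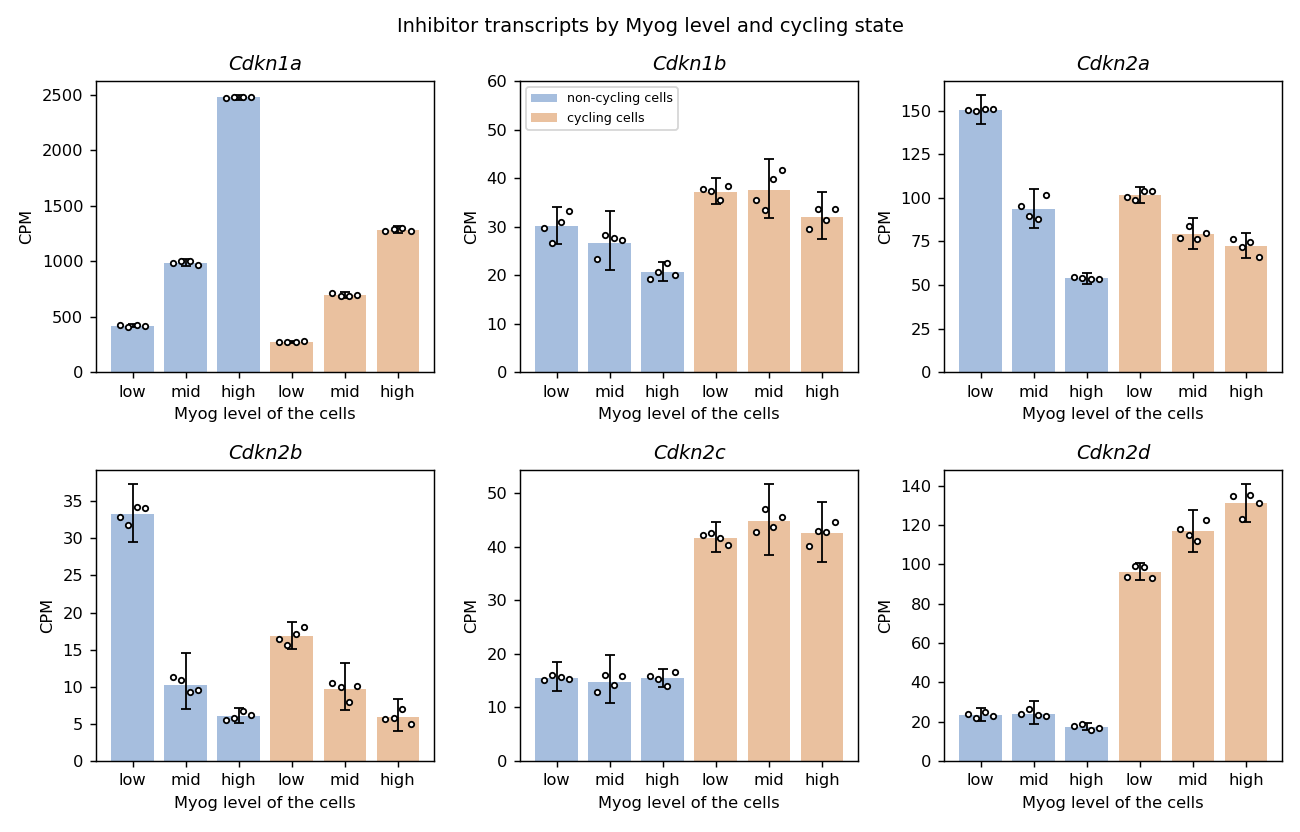
Level of each inhibitor transcript (CPM, linear axis from 0) in 6 cell groups by Myog level and cycling state; bars are means of 4 libraries of the same cells, points are the libraries and error bars 95% counting intervals. Cdkn1a climbs from 273 CPM in cycling Myog-low to 2478 CPM in non-cycling Myog-high cells, Cdkn2a and Cdkn2b go the other way, and Cdkn2c and Cdkn2d separate cycling from non-cycling cells.

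Single cells spread widely around these means. Among non-cycling Myog-low cells the median was 238 CPM, with quartiles of 89.8 and 501 CPM, and 9.12% had no Cdkn1a UMI in any library. Non-cycling Myog-high cells had a median of 2281 CPM and quartiles of 1394 and 3320 CPM, and no cell lacked it. Their lower quartile is thus well above the upper quartile of the Myog-low cells. The level of a cell in 1 library correlated with that in another at a median r of 0.88, 0.91 and 0.90 in the non-cycling groups at low, mid and high Myog, and of 0.74, 0.84 and 0.85 in the cycling ones.

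The lower quartile of non-cycling Myog-high cells, 1394 CPM, served as a mark for counting cells in the upper range. It was reached by 3.89% of non-cycling and 0.469% of cycling Myog-low cells. At mid Myog it was reached by 20.9% of non-cycling and 8.61% of cycling cells. Among cycling Myog-high cells 31.7% reached it, and 25.4% did when cells with the highest doublet scores were left out. Cells with proliferation transcripts and much Cdkn1a were therefore present, in a group where 23.5% of all cells had such scores.

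**Figure D2:**
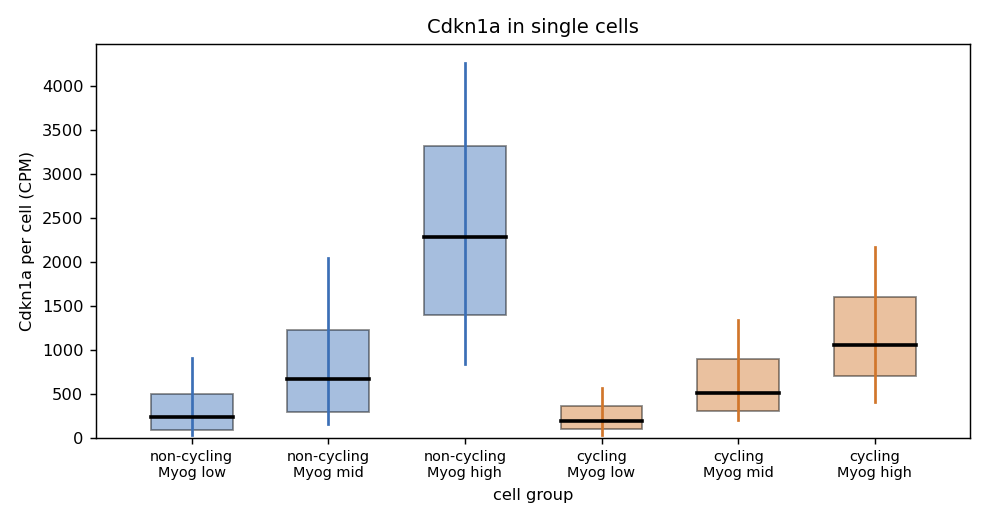
Cdkn1a per cell (CPM, linear axis from 0) in the 6 cell groups, as the spread of single cells of 1 sample. Non-cycling Myog-high cells have a median of 2281 CPM and cycling Myog-low cells one of 195 CPM, with overlap between neighbouring groups.

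To see what else separates cells with much and little Cdkn1a, the 25% of a group with the most Cdkn1a (Cdkn1a-rich) were compared with the 25% with the least (Cdkn1a-poor). Here the difference in Cdkn1a itself is set by the choice and is given as a description. In cycling Myog-low cells the 373 cells of each set held 583 against 46.1 CPM. Non-cycling Myog-low sets, 225 cells each, held 999 against 37.8 CPM, and non-cycling Myog-high sets, 464 cells each, held 4321 against 908 CPM. Cdkn1a-rich cells were deeper (median 13892 against 11577 UMIs, 9982 against 7053 and 11010 against 9991), and the part of depth in the results was not tested. Myog differed as well: 98.4 against 68.7 CPM, 103 against 71.8 CPM and 5009 against 3237 CPM.

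At low Myog, other p53 target genes were higher in the same cells as Cdkn1a. In cycling cells 8 of 19 measured genes of the p53 list were higher by at least 2-fold and 0 were lower, against 0.644% and 0.0919% of all genes. The list's median log2 ratio was 0.93, beside -0.02 for all genes. Mdm2, which encodes the ligase that degrades p53, stood at 148 against 49.1 CPM, a log2 ratio of 1.58 (1.36 to 1.79). Pmaip1, which encodes the death factor Noxa, had the highest ratio, 1.88, from few UMIs. Trp53inp1, a p53-induced nuclear protein gene, followed with 1.76 and the receptor gene Eda2r with 1.51.

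Non-cycling Myog-low cells gave a like picture, with 7 of 16 measured p53 list genes higher and 0 lower, against 1.78% and 0.531% of all genes. The list's median was 0.87, beside -0.02 for all genes. Eda2r reached 1.85, Mdm2 1.61 (153 against 49.8 CPM) and Ccng1, a cyclin-like p53 target, 1.48. The anti-proliferative gene Btg2 reached 1.47. Some other markers moved with the same split: the pericyte marker Rgs5 stood at 47.5 against 17.8 CPM and the myocyte genes Acta1 and Actc1 had ratios of 2.13 and 1.38, all past 2-fold. Of these lists, 3 of 6 measured myocyte genes and 1 of 2 pericyte or smooth muscle genes were called higher and 0 lower. The myocyte gene Tnnt1 (-0.60) and the smooth muscle gene Acta2 (-0.72) went the other way, under 2-fold. Malat1, a nuclear RNA, stood at 16064 against 9170 CPM there and at 7736 against 5377 CPM in the cycling cells. Their part in the result was not tested, although 7 and 8 p53 list genes were again higher without Malat1-poor cells. Trp53, the gene of p53 itself, had ratios of 0.07 and 0.08 in the cycling and non-cycling low groups. As background, p53 is controlled largely at the level of the protein.

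Among non-cycling Myog-high cells only 1 of 17 measured p53 list genes, Pmaip1 at 1.14, was higher in the Cdkn1a-rich cells, and 0 were lower. The count was 3 with either scaling, and 2 without library 2 or without the highest doublet scores. Of all genes 3.64% were higher and 6.64% lower there, and 327 higher and 596 lower became 465 and 370 with TMM factors. The list's median was -0.03, beside -0.21 for all genes; Mdm2 had 0.43 and Btg2 had -0.82. The difference between the low-Myog and high-Myog groups was not tested. When cells were ranked by libraries 1 and 2 and values taken from libraries 3 and 4, 6, 7 and 1 p53 list genes were higher in the cycling low, non-cycling low and non-cycling high groups. The list's medians were then 0.82, 0.93 and -0.06. Libraries on both sides of this split hold the same cells, so it is not a replication.

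**Figure D3:**
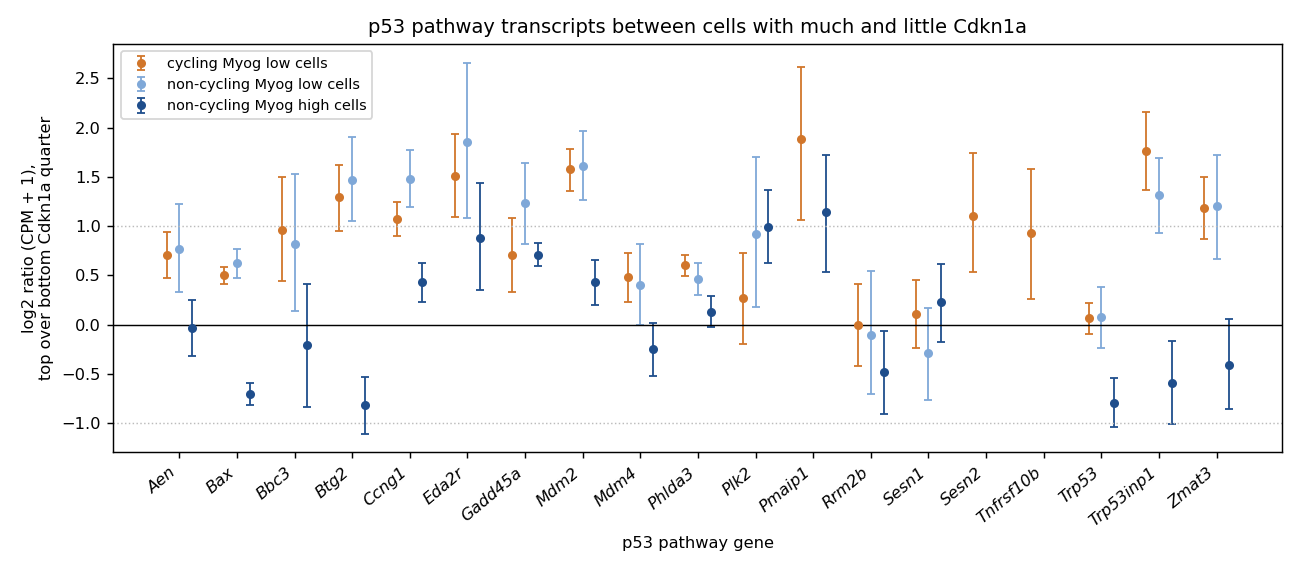
Log2 ratio (CPM plus 1) of p53 pathway transcripts between the 25% of cells with the most and the 25% with the least Cdkn1a, in 3 cell groups; points are means of 4 libraries of the same cells and bars 95% counting intervals. Mdm2 stands at 1.58 and 1.61 in the Myog-low groups and at 0.43 in the non-cycling Myog-high group.

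The p53 element of window 1 can be set beside these values. Of 19 genes with such a window, 13 are in the files and 5 had enough UMIs among the cycling Myog-low cells compared. Apart from Cdkn1a itself these were Ccng1 (1.07), Calhm2 (0.59), Rps27l (0.37) and Mthfd1 (-0.09). Ccng1 alone of these 4 was past 2-fold, with 176 against 83.1 CPM, where 0.644% of all genes were higher. It is also on the p53 list above. Ratios of Ccng1 and Rps27l were 1.48 and 0.45 in non-cycling Myog-low cells and 0.43 and -0.49 in non-cycling Myog-high cells. The 4 genes were reached through their sequence and not through their values.

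The genes that differed most between Cdkn1a-rich and Cdkn1a-poor cells were mainly of other kinds. In cycling Myog-low cells the highest ratios were those of the channel-like gene Ano3 (3.65), Cyyr1 (2.87), Gask1b (2.37), Stox2 (2.30) and Dcxr (2.05), and the lowest those of Heyl, a Notch target (-1.41), Pdgfrb (-1.36), Ung, a DNA repair enzyme (-1.31), Col1a2 (-1.15) and Arxes1 (-1.13). In non-cycling Myog-low cells they were Ano3 again (3.59), Anks1b (3.36), Pcdh9 (3.28), the embryonic myosin Myh3 (2.79) and Smpx (2.60), against Gucy1a1 (-2.53), Greb1l (-1.90), Col5a3 (-1.90), Capn6 (-1.76) and Lifr (-1.76). Ano3 thus headed both low-Myog lists. When ranks and values came from different libraries, 5 and 7 of these 10 genes were named again in cycling and non-cycling cells. All 10 kept their sign, which was nearly set beforehand because they were picked for the same sign in every library. The libraries hold the same cells, so this split is not a replication.

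Non-cycling Myog-high cells with much Cdkn1a had more transcripts of mature muscle and fewer of replication. Sost (3.90), the slow myosin Myh7 (2.98), the myostatin antagonist Fst (2.97) and BC051019 (2.74) were among the highest. Pclaf (-3.50), a clamp-associated replication factor, Arhgap22 (-3.01), Cdca3 (-3.01), the centromere histone Cenpa (-2.95) and C77080 (-2.91) were lowest. Here 6 of 10 were named again with ranks and values from different libraries of the same cells. Of 9 measured CDK and cyclin genes 4 were lower and 0 higher, with Ccnd1 at -2.18, beside 6.64% and 3.64% of all genes. In the cycling Myog-low cells 0 of 11 were called, and in non-cycling Myog-low cells 1 of 8, Ccnd2, was higher (1.02) and 0 lower. Of the transcription factors known at Cdkn1a or Cdkn1b, Klf4 (2.22) and Egr1 (1.18) were higher among 13 measured in the Myog-high cells.

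Cdkn1b varied least across groups. Libraries gave 26.7 to 33.3 CPM in non-cycling Myog-low cells, 23.3 to 28.3 CPM at mid and 19.2 to 22.6 CPM at high Myog. Cycling cells held 35.5 to 38.5 CPM at low, 33.4 to 41.6 CPM at mid and 29.6 to 33.7 CPM at high Myog. Counting intervals of neighbours in the order of groups overlapped throughout. The log2 ratio of high over low Myog was -0.52 (-0.74 to -0.30) in non-cycling and -0.21 (-0.45 to 0.02) in cycling cells, neither past 2-fold. Non-cycling cells held less than cycling cells, with ratios of -0.30 (-0.50 to -0.10) at low, -0.48 at mid and -0.61 at high Myog.

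Cdkn2a was highest in non-cycling Myog-low cells. The libraries gave 150.1, 149.9, 151.2 and 150.8 CPM there, against 93.6 CPM at mid and 53.8 CPM at high Myog. Its log2 ratio of high over low Myog was -1.47 (-1.58 to -1.35), past 2-fold. In cycling cells the step was smaller, from 102 CPM at low over 79.2 CPM at mid to 72.3 CPM at high Myog, a ratio of -0.49 (-0.64 to -0.33). Non-cycling cells thus held more than cycling cells at low Myog (0.56, 0.46 to 0.66) and less at high Myog (-0.42, -0.59 to -0.26). The high groups were not matched for Myog. At 1500 to 3000 CPM of Myog, non-cycling cells held 63.5 CPM of Cdkn2a and cycling cells 77.1 CPM. At 3000 to 6000 CPM they held 50.8 and 61.5 CPM.

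Cdkn2b, its neighbour, was also highest in non-cycling Myog-low cells. Non-cycling Myog-low cells held 32.9, 31.9, 34.3 and 34.0 CPM, mid cells 10.3 CPM and high cells 5.50, 5.73, 6.71 and 6.20 CPM. The log2 ratio of high over low was -2.29 (-2.56 to -2.01). Cycling cells held 16.8, 9.63 and 5.84 CPM at low, mid and high Myog, a ratio of -1.39 (-1.86 to -0.91), so Cdkn2b was called lower with Myog in both states. Without the highest doublet scores cycling Myog-high cells held 3.75 CPM and the ratio was -1.92, and with Myog limits of 200 and 3000 CPM it was -2.16. At low Myog non-cycling cells held more than cycling ones (0.95, 0.72 to 1.17), just short of 2-fold, and at high Myog the ratio was 0.05.

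Markers of other cell types moved with these 2 genes. The 4 fibroblast markers summed to 211 CPM in non-cycling Myog-low and 49.3 CPM in non-cycling Myog-high cells. In cycling cells they summed to 142 and 85.8 CPM at low and high Myog. Col3a1 made up nearly all of it: Pdgfra, Dcn and Lum together gave between 0.326 and 1.63 CPM across the 6 groups. The pericyte markers Rgs5 and Myh11 summed to 24.2 CPM in non-cycling Myog-low cells and between 0.932 and 7.5 CPM in the others, while Acta2, which differentiating muscle cells also express, went the other way. The part of Rgs5-bearing cells in the Cdkn2a and Cdkn2b levels was not tested.

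Cdkn2c and Cdkn2d marked cycling cells. Cdkn2c stood at 15.5, 14.8 and 15.4 CPM in non-cycling cells and at 41.7, 44.8 and 42.6 CPM in cycling cells from low to high Myog. The non-cycling over cycling log2 ratio was -1.37 (-1.63 to -1.12) at low, -1.54 at mid and -1.41 at high Myog. Myog itself made no difference that could be read: high over low gave -0.01 (-0.29 to 0.27) in non-cycling and 0.03 (-0.19 to 0.23) in cycling cells.

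For Cdkn2d, non-cycling Myog-low cells gave 23.9, 22, 24.7 and 22.9 CPM and cycling Myog-low cells 93.8, 99.1, 98.5 and 93.0 CPM. The libraries do not overlap, and the ratio of non-cycling over cycling was -1.99 (-2.20 to -1.79). It was -2.24 at mid and -2.86 (-3.04 to -2.68) at high Myog, where non-cycling cells held 17.2 CPM and cycling cells 131 CPM. The ratio of high over low Myog was 0.44 (0.32 to 0.57) within cycling cells and -0.43 (-0.66 to -0.18) within non-cycling cells, both under 2-fold. Cdkn2c and Cdkn2d were the members called between cycling states, both lower in non-cycling cells at each Myog level. When any Mki67 or Top2a UMI made a cell cycling, Cdkn2c lost its call at low (-0.96) and high Myog (-0.55), and Cdkn2d at high Myog was -1.74. The background was 2.50% of genes higher and 5.60% lower at low, 1.65% and 6.21% at mid, and 3.32% and 9.08% at high Myog, where 370 higher and 1011 lower became 495 and 784 with TMM factors.

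Cycling cells were then split into 3 classes of 708 cells by replication genes against Ccnb1, the mitotic cyclin, a split added after the values above were seen. Cdkn2d stood at 59.5 CPM in the replication-rich class, 110 CPM in the middle and 146 CPM in the Ccnb1-rich class. Cdkn2c went from 32.5 over 40.9 to 53.6 CPM and Cdkn1b from 26.2 over 35.5 to 47.5 CPM. Cdkn1a also differed, with 393, 473 and 685 CPM over all cycling cells and 254, 259 and 317 CPM within Myog-low ones. All 4 genes were thus highest where Ccnb1 was high. The Ccnb1-rich class held 27.8% of cycling Myog-low but 52.7% of cycling Myog-high cells. Within the replication-rich class Cdkn2d was 58.2 CPM at low and 57.2 CPM at high Myog, within the middle class 106 and 128 CPM, and within the Ccnb1-rich class 136 and 160 CPM.

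**Figure D4:**
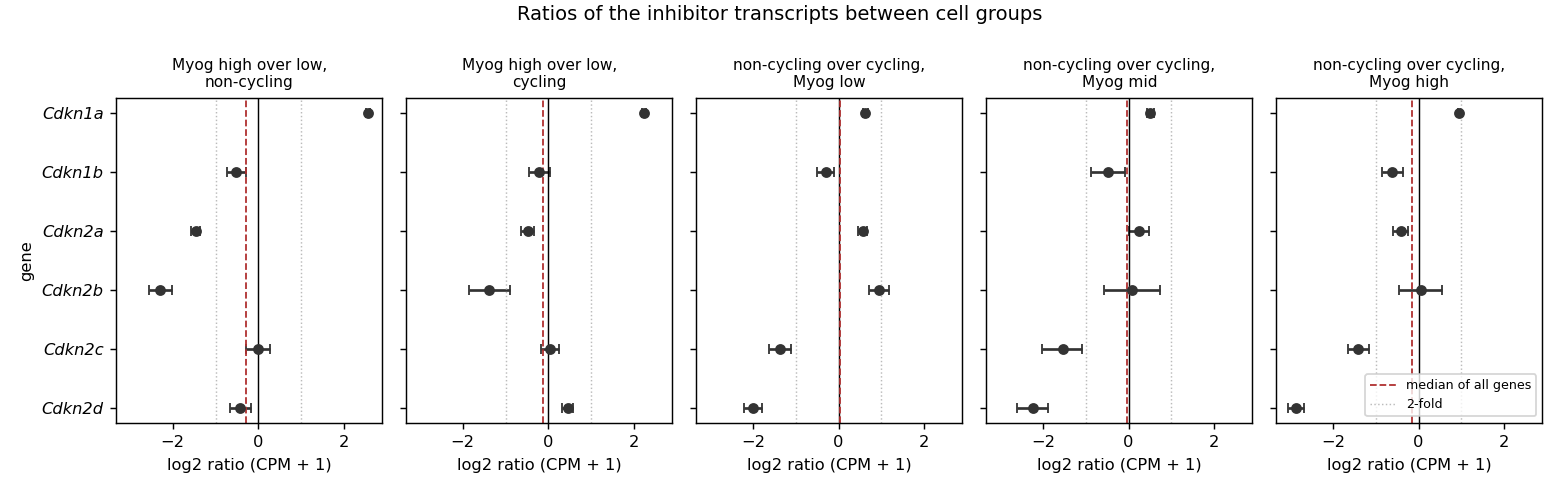
Log2 ratio (CPM plus 1) of each inhibitor transcript in 5 comparisons of cell groups; points are means of 4 libraries of the same cells, bars 95% counting intervals, the dashed line the median of all genes and dotted lines 2-fold. Cdkn1a lies at 2.56 and 2.23 between Myog-high and Myog-low cells, and Cdkn2d lies at -1.99 to -2.86 between non-cycling and cycling cells.

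The genes that these proteins act on, or that act on them, were taken from fixed lists. Of 11 CDK and cyclin genes 5 were lower and 0 higher with Myog in non-cycling cells (median -1.0, all genes -0.29). There 18.4% of all genes were lower and 8.10% higher. The D-type cyclins Ccnd2 (-3.74) and Ccnd1 (-3.50) and their kinase Cdk6 (-2.91), the partners that INK4 proteins block, led with Ccne1 (-1.89). In cycling cells 5 were lower as well (median -0.29, all genes -0.14), led by Ccnd1 (-2.0), Cdk6 (-1.87), Ccnd2 (-1.80) and Ccne1 (-1.30). There 6.39% of all genes were lower. In each of these comparisons the other 6 genes of the list were not called. Between non-cycling and cycling cells at low Myog 6 were lower, led by Ccna2 (-3.52), the mitotic kinase Cdk1 (-3.45), the mitotic cyclin Ccnb1 (-3.13) and the G1/S cyclin Ccne2 (-2.41), and Ccnd2 alone was higher (1.42). At mid and high Myog 6 and 8 were lower and 0 higher. Shares of all genes lower in non-cycling cells were 5.60%, 6.21% and 9.08% at low, mid and high Myog.

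The p53 list did not follow Cdkn1a across Myog levels. In non-cycling cells 6 of 19 were lower and only Gadd45a was higher (2.20), where 18.4% of all genes were lower and 8.10% higher. Trp53inp1 (-2.02), Zmat3 (-1.50) and Sesn2 (-1.49) were lowest, and the median was -0.74, beside -0.29 for all genes. In cycling cells 4 of 19 were lower and Gadd45a again was higher (2.65), with a median of -0.57, beside -0.14 for all genes. There 6.39% of all genes were lower and 4.94% higher. The summed level of the list was 1610 CPM in non-cycling Myog-low and 1087 CPM in non-cycling Myog-high cells. Gadd45a encodes a stress protein that, like p21, is known to respond to p53 and to other signals. Between non-cycling and cycling cells at low Myog, Trp53inp1 (1.36), Gadd45a (1.22) and Btg2 (1.03) were higher and 0 lower of 19. Beside them 2.50% of all genes were higher. At mid and high Myog 0 of 16 and 0 of 19 were called.

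Genes for the turnover of inhibitor proteins did not move as a list between cycling states, with medians of -0.06, -0.03 and 0.06 at low, mid and high Myog beside 0.03, -0.03 and -0.16 for all genes. At low Myog 4 of 12 were lower in non-cycling cells and 0 higher, where 5.60% of all genes were lower: Pcna (-1.93), Dtl (-1.68), whose product targets p21 at replication sites, and Cks1b (-1.61) and Skp2 (-1.38), which target p27. The same number were lower at mid and at high Myog, where Pcna reached -2.51 and Dtl -2.38. With Myog, Dtl (-2.37) and Pcna (-1.41) were lower in non-cycling cells and Dtl (-1.67) in cycling cells. These were 2 and 1 of 12, near the 18.4% and 6.39% of all genes that were lower.

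Regulators of transcription gave fewer calls. Of 14 measured factors known at Cdkn1a or Cdkn1b, Myc (-2.10), a repressor of both, Klf6 (-1.79) and Tcf3 (-1.37), an E-protein, were among 4 lower with Myog in non-cycling cells. Bcl6 (1.26), a repressor, was 1 of 2 higher, and Myog, which defined the groups, was not counted. There 18.4% of all genes were lower and 8.10% higher. In cycling cells Bcl6 (1.52) and Stat3 (1.38) were higher and Myc (-1.39) and Klf6 (-1.21) lower, beside 4.94% and 6.39% of all genes. Of the Polycomb list, known at Cdkn2a and Cdkn2b, Cbx7 (-1.77) and Ezh2 (-1.11) were lower of 12 with Myog in non-cycling cells, a share near the 18.4% of all genes that were lower. The median of that list was -0.35, beside -0.29 for all genes. In cycling cells 0 of 12 were called with Myog. Ezh2 (-1.72) and Suz12 (-1.04), 2 of 13 measured, were lower in non-cycling than cycling cells at low Myog, beside 5.60% of all genes.

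The senescence-associated list was lower in Myog-high cells, where Cdkn1a was high, than in Myog-low cells. Its genes were summed and counted by level alone, whichever direction each takes in senescence. The counts are therefore not a measure of senescence. With Myog 5 of 8 measured genes were lower and 0 higher in non-cycling cells (median -2.31), among them Hmga2 (-3.26), Igfbp5 (-2.52) and Hmga1 (-2.38). In that comparison 18.4% of all genes were lower (median -0.29). In cycling cells 4 of 8 were lower (median -0.94), beside 6.39% of all genes (median -0.14). Its summed level was 1025 CPM in non-cycling and 1027 CPM in cycling Myog-low cells. Genes moved in opposite directions within this sum: Igfbp5 (1.11) was higher and Lmnb1 (-2.54) lower in the non-cycling ones. Thus 1 of 8 measured genes was called higher and 1 lower, beside 2.50% and 5.60% of all genes. The equal sums do not say whether the list separates these groups. Cdkn1c, a CIP/KIP relative outside the members, stood at 7.36 CPM in non-cycling Myog-low and 186 CPM in non-cycling Myog-high cells, and at 6.14 and 120 CPM in cycling ones.

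Finer Myog bins, with limits at 100, 400, 1500, 3000 and 6000 CPM, gave 11 groups of at least 20 cells. Cdkn1a went through 391, 488, 987, 1888, 2580 and 3260 CPM in non-cycling and 258, 318, 694, 1148 and 1523 CPM in cycling cells. Cdkn2a went from 159 down to 45.9 CPM and Cdkn2b from 36.3 down to 3.69 CPM over the non-cycling bins. Over the 11 groups the standard deviation of log2(CPM + 1) was largest for Cdkn2d (1.32) and Cdkn1a (1.24), then Cdkn2b (0.98), Cdkn2c (0.76), Cdkn2a (0.55) and Cdkn1b (0.34).

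**Figure D5:**
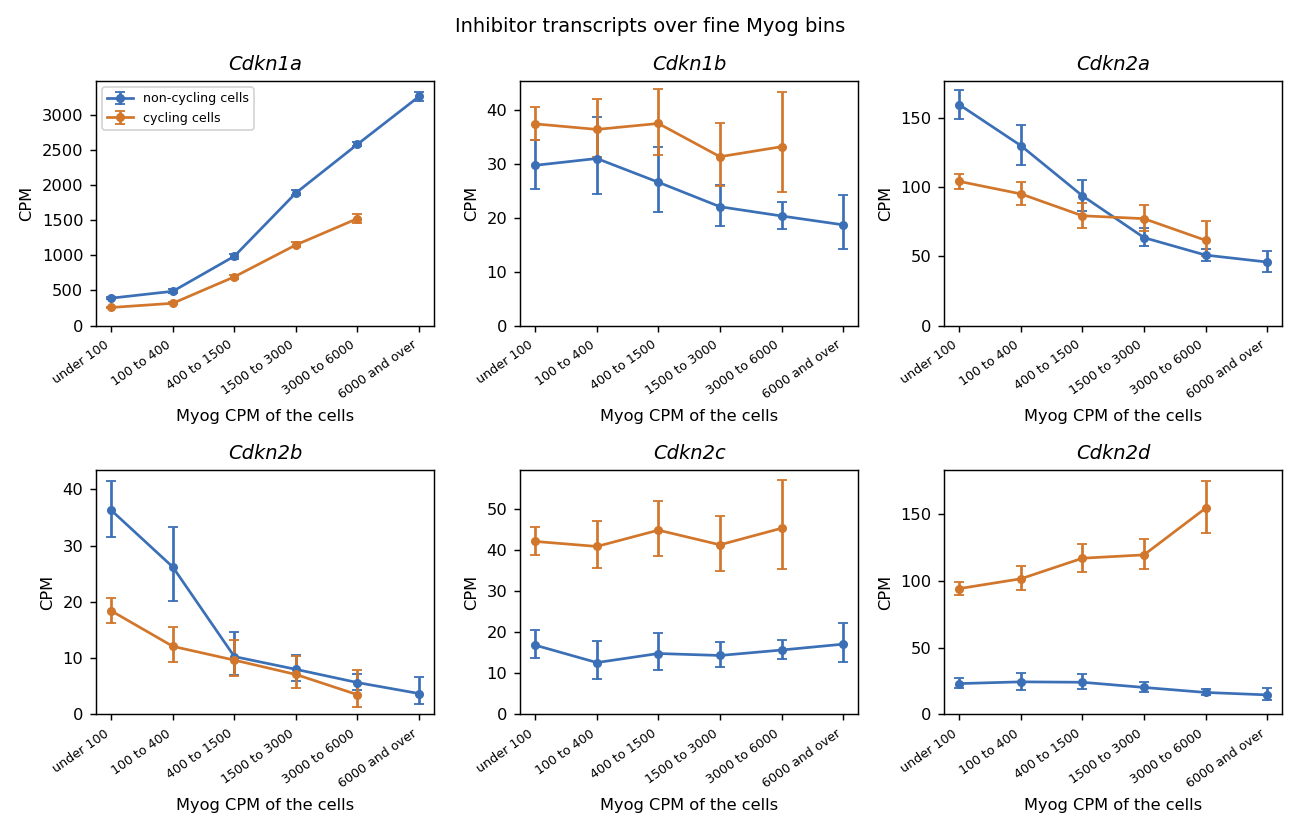
Level of each inhibitor transcript (CPM, linear axis from 0) over bins of Myog level, in cycling and non-cycling cells; points are means of 4 libraries of the same cells and bars 95% counting intervals. Cdkn1a reaches 3260 CPM in the top non-cycling bin, and Cdkn2d reaches 154 CPM in the top cycling bin while non-cycling cells end at 14.5 CPM.

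Across these 11 groups the members formed pairs. Pearson's r of log2(CPM + 1) was 0.96 for Cdkn2c with Cdkn2d, 0.95 for Cdkn2a with Cdkn2b and -0.87 for Cdkn1a with Cdkn2a. The groups share libraries and culture, and these values are descriptions. The same measure ranked all genes with enough UMIs by likeness. Most like Cdkn1a were Rnf11 (0.998), Anxa11, the muscle ring-finger gene Trim55, Sema3b and Svbp (0.993).

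The genes most like the other members were as follows. Cdkn1b was matched best by Pcbp2 (0.992), 1110059E24Rik, Dhrs7b, 1810037I17Rik and Prdx4 (0.989). For Cdkn2a they were Gng2 (0.996), Fkbp7, Elf1, Ifitm2 and Npc2 (0.993), and for Cdkn2b Pdlim2 (0.995), Ccn5, Rnase4, Casp12 and Cpe (0.984). The list for Cdkn2c held Gle1 (0.992), the lamin gene Lmnb1, the mitotic kinesin Kif4, Pif1 and Arhgap11a (0.989). Cdkn2d had the cyclin Ccna2 (0.996), Ube2c, Racgap1, Cdkn3 and Fzr1 (0.995). No gene appears in the lists of 2 members.

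Co-detection in single cells was read at the equal depth of 5000 UMIs. Cdkn1a was present in 89.6% of cells with a Myog UMI and in 61.9% of those without, a difference of 27.7 percentage points (25.1 to 30.2). An Mki67 or Top2a UMI was present in 37.5% of cells with Cdkn1a and 61.4% of cells without, a difference of -23.9 points (-27.2 to -20.4). Within groups this difference was not seen: it was -0.8 points (-5.4 to 3.2) in non-cycling and 1.4 points (-1.6 to 4.6) in cycling Myog-low cells, groups that Mki67 and Top2a themselves defined. Without thinning the difference over all cells was -9.29 points.

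Cdkn2d was present in 34.3% of cells with an Mki67 or Top2a UMI and in 9.6% of those without. The difference held within cycling cells, at 19.1 points (10.7 to 25.8) at low, 23.6 points at mid and 23.4 points at high Myog. Cdkn2d was thus found more often in cells with proliferation transcripts, here in groups that Mki67 and Top2a themselves defined. Among cycling cells it also stood at 59.5 CPM in the replication-rich and 146 CPM in the Ccnb1-rich class. The part of cycle position in the co-detection was not tested. Cdkn2a was present in 26.9% of cells with Myog and 40.7% of cells without, a difference of -13.8 points.

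Among the 15 pairs of members, 4 differences lay above 0 and 4 below 0 beyond their intervals over all cells. Cdkn2a was present in 45.5% of cells with Cdkn2b and 30.5% of those without (15 points, 9.2 to 20.9), and in non-cycling Myog-low cells in 57.5% against 44.0% (13.6 points, 3.0 to 23.8). Cdkn2c was present in 20.0% of cells with Cdkn2d and 9.3% of those without (10.7 points, 8.1 to 13.4), and in cycling Myog-low cells in 25.5% against 14.0% (11.5 points, 7.1 to 16.1). Cdkn1b with Cdkn2d gave 5.2 points (0.9 to 9.5) in cycling Myog-low cells. No other pair of members had an interval apart from 0 in the groups with enough cells. Within groups, 1 of 15 pairs in non-cycling and 2 of 15 in cycling Myog-low cells lay above 0, and 0 below. At mid and high Myog 0 of 8 and 0 of 15 non-cycling pairs did, and 0 of 12 cycling pairs at each level. The intervals were not adjusted for the number of pairs, and chance alone flags about 1 in 20. Cdkn1b with Cdkn2d, whose lower limit was 0.9 points, could be such a case. Cdkn1a was present in 76.2% of cells with Cdkn2a and 82.6% of cells without, but the difference was -2.0 points in non-cycling and 2.3 points in cycling Myog-low cells, with intervals that include 0.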

How the data were processed

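The authors deposited unnormalized counts of UMIs for each gene in each barcode; per the file headers, Cell Ranger 7.1.0 wrote them. The submitters' processing notes name Cell Ranger 3.1.0 and the builds mm10 and GRCm39, so version and build conflict, and the use of strand and of intronic reads is not given in the sources used here. Of 32285 gene identifiers, 32158 (99.6%) were found in GENCODE M21. Because the 4 libraries hold the same cells, the planned comparisons became descriptions. Counts were summed per cell group and library, scaled to CPM, and compared as log2 ratios of CPM with a pseudocount of 1. Intervals were exact at the 95% level (Poisson for levels, conditional binomial for ratios, Clopper-Pearson for shares). Doublet scores came from Scrublet in scanpy 1.11.5, whose own threshold called 0 cells and was not used. Low Malat1 (under 1500 CPM) marked cells with little nuclear RNA: 12.7%, 11.0% and 6.36% of non-cycling and 12.4%, 11.6% and 11.7% of cycling cells at low, mid and high Myog. Alternatives covered cell limits, Myog bins, cycling limits, thinning, doublets, Malat1, pseudocount, count minimum, each library left out, and scaling by edgeR 4.0.16 TMM and DESeq2 1.42.0 size factors. The ratio script was tested on simulated data.

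Named genes were all members, at most 4 genes of each list per comparison (the largest ratios past 2-fold), the 5 genes most like each member, and the 5 highest and 5 lowest between Cdkn1a-rich and Cdkn1a-poor cells. Some genes that this rule names are not reported here. Trp53, Mdm2, Btg2, Pmaip1 and cell type markers were also named outside this rule, after their values were seen. The members and lists were chosen with earlier results of these data known.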

Additional observations from a re-analysis of the deposited data

Results flagged for a closer look

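Cdkn2d moved in opposite directions with Myog in the 2 cycling states, in every library. High over low Myog gave a log2 ratio of -0.43 in non-cycling and 0.44 in cycling cells. The difference was not tested, and the cycling value became -0.45 when any Mki67 or Top2a UMI made a cell cycling.

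Cdkn2a was higher in non-cycling than in cycling cells at low (0.56) and mid (0.24) Myog and lower at high Myog (-0.42), in every library. This difference was not tested either, and the mid value became -0.04 with Myog limits of 200 and 3000 CPM. At high Myog the non-cycling cells also held more Myog, 4194 against 2808 CPM.

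The 463 barcodes left out for few genes or much mitochondrial RNA still held Cdkn1a, at 387 CPM of non-mitochondrial UMIs (337 to 444), against 1217 CPM in kept cells. No library stood apart from the other 3 in any of 36 values compared, although chance alone flags about 1 in 20.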

How the results depend on the processing

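No paired analysis was possible because the labels give 1 group only and its 4 numbered libraries hold the same cells. Of the values a comparison turns on, 202 recomputed under an alternative moved by less than the spread allowed and 32 moved further. Of all other values 375 did not, 45 did and 1 was counted as reversed. Ratios under 2-fold changed sign more often than this count shows. Cdkn2d with Myog in cycling cells went from 0.44 to -0.45 when any Mki67 or Top2a UMI made a cell cycling. Cdkn2c with Myog, at -0.01 and 0.03, kept its sign in 10 of 14 alternatives in each cycling state. Cdkn2b between cycling states kept it in 10 of 14 at mid and 12 of 14 at high Myog. The cause of these moves was not tested. Leaving out each library in turn moved none of the former. No member called with all cells and libraries changed direction, and only Cdkn2c between cycling states dropped under 2-fold, at low and high Myog.

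With TMM factors and with size factors, which bring the median of all genes from -0.29 and -0.14 to within 0.05 of 0, Cdkn1a with Myog gave 2.89 and 2.92 in non-cycling and 2.37 and 2.37 in cycling cells. On these scales Cdkn2a gave -1.14 and -1.11 and Cdkn2b gave -1.98 and -1.95 in non-cycling cells, and Cdkn1a between cycling states at high Myog 1.13 and 1.13. With Myog limits of 200 and 3000 CPM, Cdkn1a with Myog gave 2.73 and 2.59, Cdkn2a -1.64, and Cdkn1a at high Myog 0.78. With CPM averaged over cells Cdkn1a gave 2.65 with Myog and 1.04 between states. With any Mki67 or Top2a UMI making a cell cycling, Cdkn1a gave 2.67 and 0.55, and Cdkn2c at low Myog -0.96. Limits of 300 and 30 CPM gave -2.21 for Cdkn2d, and leaving out the highest doublet scores gave 2.06 and 1.15 for Cdkn1a.

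Without thinning, the difference in Mki67 or Top2a by Cdkn1a was -9.29 points, and that in Cdkn1a by Cdkn2a reversed to 0.73 points.

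Of gene counts, those lower with Myog in non-cycling cells went from 2138 to 1399 with size factors. Without a count minimum those higher in non-cycling Myog-mid cells went from 148 to 300. Between Cdkn1a-rich and Cdkn1a-poor Myog-high cells those lower went from 596 to 370 with TMM, 363 with size factors and 1016 without a minimum. Without a minimum the higher and lower counts went from 63 and 9 to 113 and 33 in cycling Myog-low, and from 134 and 40 to 456 and 226 in non-cycling Myog-low cells. The 1 p53 list gene higher in Myog-high cells became 3 with either scaling, 2 without the highest doublet scores and 2 without library 2.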
